A study of Mus musculus with 30 samples.

Results

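Endoplasmic reticulum (ER) stress and protein folding were followed in mouse left ventricle through 8 genes: the transcription factors Atf4, Ddit3 and Xbp1, the chaperones Hspa5 and Hsp90b1, the co-chaperone Dnajb9, and the lectin chaperones Calr and Canx. The genes were chosen by symbol, and every probe set annotated with one of these symbols alone was taken. All 8 genes were measured, by 10 of the 12422 probe sets tested, with 2 probe sets each for Dnajb9 and Canx and 1 for each of the others. No filter on low values was used, so all 10 probe sets entered every test.

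The series holds 30 Affymetrix MG_U74Av2 arrays of left ventricle from C57BL/6 mice at 2 months of age, in 8 groups of sex, diet and genotype. HCM mice on the casein-based diet gave 4 female and 4 male arrays, wild-type mice on casein 4 female and 4 male, HCM mice on the soy-based diet 3 female and 3 male, and wild-type mice on soy 4 female and 4 male. RNA of 2 animals was pooled for each array, so p-values measure the spread between pools and not between single animals. The labels neither spell out HCM nor name the allele, its promoter or the source of the wild-type mice. All values are log2 expression per probe set. Differences are HCM minus wild type, casein minus soy or female minus male, from limma fitted to all probe sets, and a probe set passed at a Benjamini-Hochberg adjusted p under 0.05.

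The ER folds proteins that enter the secretory route. When unfolded proteins build up there, sensors in its membrane start the unfolded protein response: ATF6 and the IRE1 product XBP1 raise chaperone genes, and PERK slows translation while ATF4 is made, which in turn induces Ddit3. Heart muscle also keeps its calcium store in a specialised part of this membrane system, and genes of the response have been studied in hypertrophy and ischaemia. Messenger RNA levels, as measured here, report neither the splicing of Xbp1 nor the amount of ATF4 protein.

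The arrays had medians of 6.11 to 6.22 and correlated with each other at 0.93 to 0.997. The medians divided by diet without overlap, at 6.108 to 6.189 on casein and 6.197 to 6.224 on soy. Of the 10 cardiomyocyte markers listed, 8 were measured, and all lay at or above the 96.2nd percentile of probe sets, so the arrays matched the labelled tissue. Xist read 4.73 to 7.17 on female and 4.19 to 4.47 on male arrays. The casein HCM arrays stood apart in control RNAs. The added poly-A control Dap read 7.18 to 8.07 there, against 4.03 to 4.7 on all other arrays. Thr (6.07 to 6.51 against 4.43 to 5.51), Lys (4.78 to 5.12 against 4.08 to 4.47) and Phe (5.46 to 5.92 against 4.69 to 5.14) were also higher without overlap. What the poly-A controls reflect cannot be told apart from casein HCM in any comparison that uses those arrays. The actin 3′ minus 5′ signal ran from -0.50 to 0.17 in casein HCM, against 0.15 to 0.44 in casein wild type. The hybridization controls BioD minus BioC were 1.59 to 1.75 in casein HCM, 2.35 to 2.45 in soy HCM and 1.56 to 1.86 in soy wild type, and divided the casein wild-type arrays into a first set of 4 (2.17 to 2.44) and a second set of 4 (0.50 to 0.63). Soy HCM lay above soy wild type and above casein HCM in this control, without overlap. Casein wild type lay on both sides of casein HCM and of soy wild type, its first set above and its second below. No casein wild-type array fell within the range of either group. What the control reflects therefore cannot be told apart from genotype and diet in these comparisons. It overlapped between casein HCM and soy wild type, and between the first casein wild-type set and soy HCM. The array sets used as a random block therefore follow the labels, 1 for each combination of diet and genotype, with only casein wild type divided by the control. A call that passes with this block cannot separate a difference between sets from diet or genotype. Between the sets of casein wild type, 1681 of all probe sets (13.5%) passed, and none of the 10 did (-0.22 to 0.03; at an unadjusted p under 0.05, also none).

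The promoters of the chaperone genes are printed because they hold the ER stress element, CCAAT and CCACG with 9 bases of any kind between them, which the unfolded protein response is known to act through. Both strands of RefSeq promoter windows of 300 bases (build GRCm38.p6; 250 before the start and 50 after) were searched, and 39 of 32851 windows (0.119%) held the element, among them those of Hspa5, Hsp90b1, Calr and Canx, 4 of the 8 genes. Dnajb9, by its probe set 96679_at, and Ddit3 differed most of the 8 genes between HCM and wild type on casein. Both held no match and are shown for comparison. The sequences run 5′ to 3′ along the gene's strand over the 250 bases before the start, with matches in capitals.
Hspa5 (chr2:34771840-34772089, plus strand): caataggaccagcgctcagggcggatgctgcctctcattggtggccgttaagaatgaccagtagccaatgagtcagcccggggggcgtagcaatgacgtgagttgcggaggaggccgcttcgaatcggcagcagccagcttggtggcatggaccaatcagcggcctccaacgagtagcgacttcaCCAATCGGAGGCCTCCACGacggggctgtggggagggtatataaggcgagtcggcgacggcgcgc
Hsp90b1 (chr10:86705445-86705694, minus strand): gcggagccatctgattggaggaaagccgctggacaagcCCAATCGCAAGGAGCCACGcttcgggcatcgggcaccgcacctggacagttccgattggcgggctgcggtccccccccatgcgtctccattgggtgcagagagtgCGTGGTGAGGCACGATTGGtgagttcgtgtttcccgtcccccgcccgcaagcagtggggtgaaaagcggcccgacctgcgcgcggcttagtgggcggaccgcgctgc
Calr (chr8:84846932-84847181, minus strand): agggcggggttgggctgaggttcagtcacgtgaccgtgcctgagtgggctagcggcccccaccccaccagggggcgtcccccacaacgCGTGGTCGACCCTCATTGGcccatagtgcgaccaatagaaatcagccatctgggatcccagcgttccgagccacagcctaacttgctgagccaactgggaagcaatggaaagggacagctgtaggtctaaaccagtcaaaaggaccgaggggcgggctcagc
Canx (chr11:50325674-50325923, minus strand): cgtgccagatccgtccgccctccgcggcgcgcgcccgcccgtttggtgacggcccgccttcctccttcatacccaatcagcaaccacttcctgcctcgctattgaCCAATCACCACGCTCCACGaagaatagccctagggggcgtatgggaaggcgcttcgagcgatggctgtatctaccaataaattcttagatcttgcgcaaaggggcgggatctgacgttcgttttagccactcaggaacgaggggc
Dnajb9 (chr12:44210069-44210318, minus strand): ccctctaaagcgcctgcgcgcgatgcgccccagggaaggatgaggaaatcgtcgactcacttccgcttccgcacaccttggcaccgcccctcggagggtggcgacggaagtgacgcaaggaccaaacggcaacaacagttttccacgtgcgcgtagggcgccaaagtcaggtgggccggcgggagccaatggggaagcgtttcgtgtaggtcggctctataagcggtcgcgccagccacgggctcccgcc
Ddit3 (chr10:127290543-127290792, plus strand): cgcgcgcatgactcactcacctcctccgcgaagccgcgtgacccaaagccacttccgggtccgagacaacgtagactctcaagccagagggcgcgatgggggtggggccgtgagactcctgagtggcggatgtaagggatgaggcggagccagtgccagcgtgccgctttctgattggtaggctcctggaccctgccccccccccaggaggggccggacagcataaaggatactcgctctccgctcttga
In Hspa5 the element ran from base -65 to -47 before the start, in Canx from -145 to -127, and in Calr from -162 to -144 on the opposite strand. Hsp90b1 held it at -212 to -194 and, on the opposite strand, at -107 to -89. Its CCAAT part is also a CCAAT box, found in 37.4% of all windows and in 7 of the 8 genes, all but Xbp1. The second ER stress element (ATTGG, 1 base of any kind, CCACG; 0.0365% of windows), TGACGTGG (0.676%) and the amino acid response core TGATGNAA (3.97%) matched none of the 8, and TGACGT (7.51%) matched Hspa5 and Canx.

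**Figure D1:**
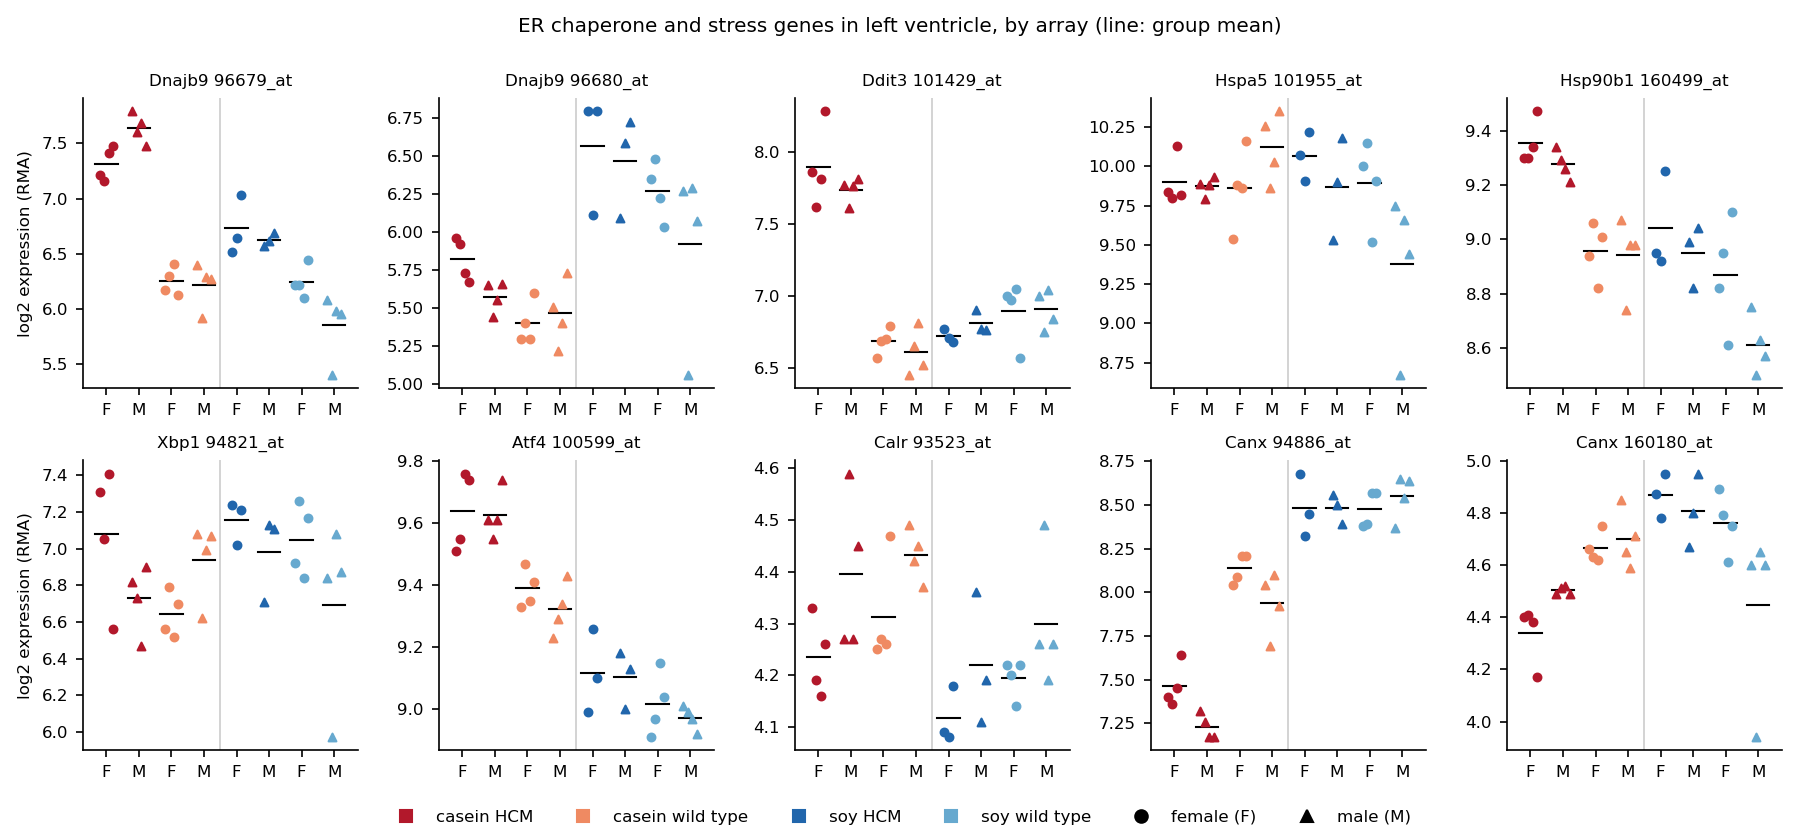
Log2 expression of the 10 probe sets on each of the 30 arrays, casein left and soy right of the grey line, with HCM (dark) left of wild type (light), females as circles, males as triangles and a black line at each group mean. Dnajb9 96679_at and Ddit3 are highest in casein-fed HCM hearts, where Canx 94886_at is lowest, while HCM and wild type overlap for Xbp1 and Calr.

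HCM hearts differed from wild type more on casein for Dnajb9 96679_at (2.37-fold higher), Ddit3 (2.25-fold higher) and Canx 94886_at (1.61-fold lower). Hsp90b1 and Atf4 were 1.29-fold and 1.21-fold higher on casein, and a difference from their effects on soy was not shown. On soy, Dnajb9 96679_at was 1.55-fold and Hsp90b1 1.19-fold higher, while Ddit3 and Canx 94886_at did not pass. On casein, 6 of the 10 probe sets passed, 4 higher and 2 lower, where 49% of all probe sets passed (25% higher and 24% lower), and their median difference was 0.19 against -0.00 over all probe sets. On soy, 4 passed, all higher, where 24.7% of all did, 12.3% in each direction (medians 0.22 and -0.01). In the mean over both diets and sexes, 5 were higher and 1 lower, where 32.8% of all passed, 17.2% higher and 15.6% lower (medians 0.18 and -0.01). On soy the cardiomyocyte markers were also higher in HCM, 8 of 8 measured with a median difference of 0.28, and their part in the soy results was not tested. That list averaged 12.35 to 12.46 in soy HCM and 11.78 to 12.21 in soy wild type. With 49% of the whole array past the threshold on casein, a count of 6 in 10 says little about these genes as a group. Results are therefore given gene by gene. The share of all probe sets that separate the genotypes without overlap is not given, so separation describes each gene and does not set it apart from the array.

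Ddit3 encodes CHOP, a transcription factor induced downstream of ATF4 and linked to cell death when ER stress is prolonged. In casein-fed females its 4 HCM arrays read 7.86, 7.62, 7.81 and 8.28, against 6.57, 6.69, 6.70 and 6.79 in wild type. In casein-fed males HCM arrays read 7.77, 7.61, 7.76 and 7.81, against 6.45, 6.65, 6.81 and 6.52 in wild type. Every casein HCM array lay above every casein wild-type array. On soy, HCM females read 6.77, 6.71 and 6.68 and HCM males 6.90, 6.77 and 6.76, against 7.00, 6.97, 7.05 and 6.57 in wild-type females and 7.00, 6.75, 7.04 and 6.84 in wild-type males. The soy groups overlapped in both sexes. Casein HCM hearts averaged 7.82 ± 0.21 and casein wild type 6.65 ± 0.13 (SD, n = 8 each), a difference of 1.17 ± 0.08 (SE; limma adjusted p = 3.74e-12), or 2.25-fold. Soy HCM hearts averaged 6.76 ± 0.07 (n = 6) and soy wild type 6.90 ± 0.17 (n = 8), a difference of -0.14 ± 0.08 (adjusted p = 0.228). The HCM effect on casein exceeded that on soy by 1.31 ± 0.11 (adjusted p = 9.47e-10), the largest such difference among the 10 probe sets. With arrays weighted by their scatter, the soy difference was -0.22 (adjusted p = 0.00448), lower in HCM.

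Atf4 encodes the transcription factor that PERK signalling raises through translation and that drives amino acid synthesis and transport genes. HCM females on casein read 9.51, 9.55, 9.76 and 9.74, against 9.33, 9.47, 9.35 and 9.41 in wild type. HCM males on casein read 9.61, 9.55, 9.61 and 9.74, against 9.23, 9.29, 9.34 and 9.43 in wild type. Both sexes were separated by genotype on casein. Soy HCM hearts read 8.99, 9.26 and 9.10 in females and 9.18, 9.0 and 9.13 in males, against 8.91, 8.97, 9.15 and 9.04 in wild-type females and 9.01, 8.99, 8.97 and 8.92 in wild-type males. These overlapped, and the HCM difference was 0.28 ± 0.05 on casein (adjusted p = 7.53e-05) and 0.12 ± 0.06 on soy (adjusted p = 0.126). A difference between these effects was not shown (0.16 ± 0.08, adjusted p = 0.0887; 0.18 and 0.0487 with array weights).

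Xbp1, whose mRNA is cut by IRE1 to make an active transcription factor, passed in no comparison. Its arrays ran from 6.47 to 7.41 in casein HCM, 6.52 to 7.08 in casein wild type, 6.71 to 7.24 in soy HCM and 5.97 to 7.26 in soy wild type. The HCM difference was 0.12 ± 0.13 on casein (adjusted p = 0.469) and 0.20 ± 0.14 on soy (adjusted p = 0.296). With arrays weighted by their scatter (-0.16, adjusted p = 0.0352), or without male soy wild-type array 2 (-0.18, adjusted p = 0.0341), it passed for the mean diet difference, lower on casein.

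Dnajb9 (ERdj4) encodes an ER J-domain protein that works with the chaperone BiP and is a known target of XBP1. Its probe set 96679_at was the only one of the 10 in which all HCM arrays lay above the wild-type arrays of the same sex and diet in all 4 comparisons. How many probe sets of the whole array did so is not given. HCM females on casein read 7.21, 7.16, 7.41 and 7.48, against 6.17, 6.30, 6.41 and 6.13 in wild type. HCM males on casein read 7.79, 7.60, 7.69 and 7.48, against 6.40, 5.92, 6.29 and 6.27 in wild type. On soy the gap was smaller. HCM females on soy read 6.52, 6.64 and 7.03, against 6.22, 6.22, 6.10 and 6.44 in wild type, and HCM males 6.57, 6.62 and 6.69, against 6.08, 5.40, 5.98 and 5.95. The HCM difference was 1.24 ± 0.09 on casein (adjusted p = 1.86e-11; 7.48 ± 0.22 in HCM and 6.23 ± 0.16 in wild type, SD, n = 8 each), or 2.37-fold. On soy it was 0.63 ± 0.10 (adjusted p = 4.8e-05; 6.68 ± 0.18 in HCM, n = 6, and 6.05 ± 0.30 in wild type, n = 8), or 1.55-fold. The HCM effect was 0.62 ± 0.13 larger on casein (adjusted p = 0.000443). With array set as a random block the differences were 1.24 (adjusted p = 1.87e-07) on casein and 0.63 (adjusted p = 0.0237) on soy. By level, casein HCM stood first, then soy HCM, then casein and soy wild type, and the last pair did not differ beyond the spread (0.19 ± 0.09, adjusted p = 0.0935).

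The second Dnajb9 probe set, 96680_at, had HCM differences of the same sign as the first but did not follow it by diet. It read 5.44 to 5.96 in casein HCM, 5.22 to 5.73 in casein wild type, 6.09 to 6.79 in soy HCM and 5.06 to 6.48 in soy wild type. HCM differences were 0.26 ± 0.14 on casein (adjusted p = 0.11) and 0.42 ± 0.15 on soy (adjusted p = 0.0392). The soy call was lost with array set as a random block (adjusted p = 0.357) and without any 1 of 7 soy arrays: female HCM 1 or 3, female wild type 3 or 4, male HCM 2 or 3, or male wild type 2 (0.27 to 0.41, adjusted p = 0.0608 to 0.119). In the mean over both diets and sexes 96680_at passed, higher in HCM. That call was lost with array set as a random block (0.34, adjusted p = 0.171) and without the first casein wild-type set (0.30, adjusted p = 0.0504). Over 30 arrays both probe sets correlated at 0.01, and at 0.46 once group means were removed. Male soy wild-type array 2 read lowest of all 30 arrays on both, at 5.40 and 5.06, and adds to the value of 0.46. The correlation within groups without that array was not computed, so shared scatter on the other arrays is not shown. The 2 probe sets disagreed between groups, by diet and not in the sign of the HCM difference. Without male soy wild-type array 2 the difference on casein became a call (0.26, adjusted p = 0.0232), as it did when only the casein groups entered the fit (adjusted p = 0.00601). The files do not say which part of the transcript each one reads.

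**Figure D2:**
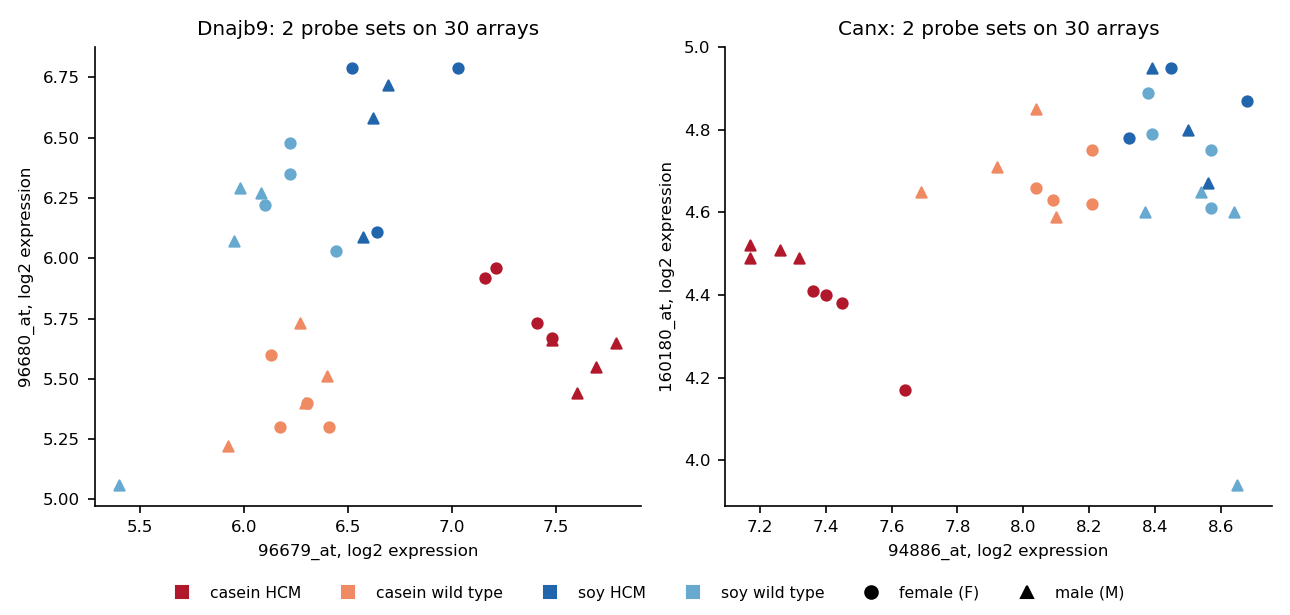
The 2 probe sets of Dnajb9 (left) and of Canx (right) plotted against each other on 30 arrays, in log2 expression, coloured by diet and genotype with females as circles and males as triangles. Casein HCM arrays lie to the right for Dnajb9 96679_at without being high for 96680_at, and for Canx they lie low on both axes.

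Hspa5 encodes BiP, the HSP70 chaperone of the ER lumen and the usual marker gene of the unfolded protein response. It did not pass for HCM on either diet. HCM arrays on casein ran from 9.79 to 10.13 and wild-type arrays from 9.54 to 10.35, a difference of -0.11 ± 0.12 (adjusted p = 0.481). On soy they ran from 9.53 to 10.22 in HCM and from 8.67 to 10.15 in wild type, a difference of 0.33 ± 0.13 (adjusted p = 0.0693). The soy difference became a call with array weights (0.28, adjusted p = 0.0116) and without male soy HCM array 1 or male soy wild-type array 1 or 3 (0.38 to 0.42, adjusted p = 0.0298 to 0.0417). The groups overlapped in every sex and diet. The rise of Dnajb9 96679_at and Ddit3 on casein thus came without a rise of Hspa5 that these arrays could show. The effects differed by -0.44 ± 0.18 (adjusted p = 0.0497), a call lost in 22 of 30 fits that left out 1 array (-0.53 to -0.32 over all 30) and with array set as a random block (adjusted p = 0.273).

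Hsp90b1 encodes GRP94, the HSP90 chaperone of the ER. HCM females on casein read 9.30, 9.30, 9.34 and 9.47, against 8.94, 9.06, 8.82 and 9.01 in wild type. HCM males on casein read 9.34, 9.29, 9.26 and 9.21, against 9.07, 8.74, 8.98 and 8.98 in wild type. Casein HCM arrays lay above casein wild type in both sexes. On soy, HCM females read 8.95, 8.92 and 9.25 and HCM males 8.99, 8.82 and 9.04, against 8.82, 8.95, 8.61 and 9.10 in wild-type females and 8.75, 8.50, 8.63 and 8.57 in wild-type males. The genotypes were separate in soy males and overlapped in soy females. The HCM difference was 0.36 ± 0.07 on casein (adjusted p = 4.77e-05) and 0.25 ± 0.07 on soy (adjusted p = 0.0106), and the effects did not differ beyond their error (0.11 ± 0.10, adjusted p = 0.372). The soy call was lost with array set as a random block (adjusted p = 0.231) and without female soy HCM array 3 (0.20, adjusted p = 0.0519).

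Canx and Calr encode calnexin and calreticulin, the membrane-bound and soluble lectin chaperones that hold newly made glycoproteins. The Canx probe set 94886_at was lower in HCM on casein. HCM females on casein read 7.40, 7.36, 7.45 and 7.64, against 8.04, 8.09, 8.21 and 8.21 in wild type. HCM males on casein read 7.32, 7.26, 7.17 and 7.17, against 8.04, 7.69, 8.10 and 7.92 in wild type. Every casein HCM array lay below every casein wild-type array. Soy HCM hearts read 8.68, 8.32 and 8.45 in females and 8.56, 8.50 and 8.39 in males, against 8.38, 8.39, 8.57 and 8.57 in wild-type females and 8.37, 8.65, 8.54 and 8.64 in wild-type males, and overlapped in both sexes. The HCM difference was -0.69 ± 0.06 on casein (adjusted p = 1.1e-09; 7.35 ± 0.16 in HCM and 8.04 ± 0.17 in wild type, SD, n = 8 each) and -0.03 ± 0.07 on soy (adjusted p = 0.788). The effects differed by -0.66 ± 0.09 (adjusted p = 2.21e-06), and by -0.66 with array set as a random block (adjusted p = 0.00128). Canx 160180_at moved the same way on casein (-0.26 ± 0.07, adjusted p = 0.00515; 0.0864 with the random block), with no overlap in either sex. Its mean signal lay at the 20th percentile of all probe sets, a dim signal that limits what it can show.

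On soy Canx 160180_at was higher in HCM (0.23 ± 0.08, adjusted p = 0.0365), where 94886_at was not. That call was lost without any 1 of the same 7 soy arrays as for Dnajb9 96680_at (0.15 to 0.23, adjusted p = 0.0547 to 0.112) and with array set as a random block (adjusted p = 0.35). Male wild-type array 2 on soy read 3.94, against 4.60 to 4.65 on the other 3 of its group; it also read lowest of all 30 arrays for both Dnajb9 probe sets, Hspa5, Hsp90b1 and Xbp1. Calr read between 4.08 and 4.59 on all 30 arrays, and its HCM difference was -0.06 ± 0.05 on casein (adjusted p = 0.416) and -0.08 ± 0.06 on soy (adjusted p = 0.335). Its probe set ranked at the 13.7th percentile of all probe sets by mean signal, likewise dim.

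**Figure D3:**
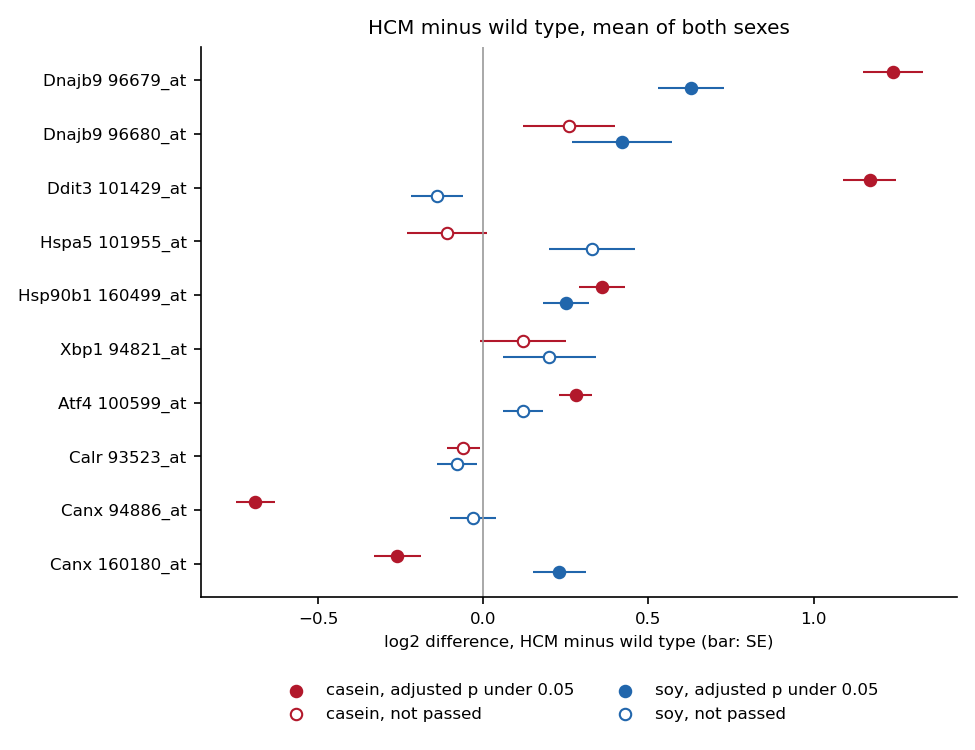
HCM minus wild type on the log2 scale for the 10 probe sets, on casein (red) and on soy (blue), each the mean of both sexes with its SE; filled points passed at an adjusted p under 0.05. Ddit3 and Canx 94886_at moved on casein with soy values of -0.14 and -0.03, while Dnajb9 96679_at passed on both diets at 1.24 and 0.63.

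Of the 10 probe sets, 5 passed the test of a difference in HCM effect between diets, 2 higher on casein (Dnajb9 96679_at and Ddit3) and 3 lower (Hspa5 and both of Canx), where 45.2% of all probe sets passed (23.9% higher and 21.3% lower). Markers of several cell types passed for HCM on casein, where 25% of all probe sets were higher and 24% lower. Their part in these results was not tested. Of 8 cardiomyocyte markers measured 4 were higher and 2 lower (12.47 to 12.65 in casein HCM and 12.41 to 12.58 in casein wild type). Of 4 atrial markers 3 were higher and none lower, with a median difference of 0.69, and the list averaged 7.51 to 8.58 in casein HCM and 6.82 to 7.65 in casein wild type. Of 8 endothelial markers 1 was higher and 3 lower (7.72 to 7.98 and 7.91 to 8.06). Of 6 smooth muscle and pericyte markers 5 were higher, and the list averaged 7.63 to 8.02 in casein HCM and 7.00 to 7.44 in casein wild type. Of 8 fibroblast markers 5 were higher and 1 lower (8.38 to 8.97 and 8.04 to 8.49), and of 8 macrophage markers 4 were higher and 2 lower (7.30 to 7.73 and 7.20 to 7.38). Of 6 B and plasma cell markers, cells that express the response strongly, 2 were higher and none lower (6.19 to 6.35 and 5.97 to 6.29). Median differences were 0.13 for cardiomyocyte, 0.01 for endothelial and 0.15 for macrophage markers. They were 0.44 for smooth muscle and pericyte, 0.36 for fibroblast and 0.09 for B and plasma cell markers. In such bulk tissue, fewer cells of a type and less RNA per cell cannot be told apart.

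Canx 94886_at and Atf4 differed by diet in both genotypes, and Ddit3 and Dnajb9 96679_at most in HCM. Casein-fed hearts had lower Canx 94886_at than soy-fed hearts of the same sex and genotype with no overlap in any of 4 comparisons, and higher Atf4 likewise. The share of all probe sets without such overlap is not given. In the mean over sexes and genotypes 8 of the 10 passed, 5 higher and 3 lower on casein, where 62.3% of all probe sets passed, 29% higher and 33.3% lower (medians 0.14 and -0.01). In HCM 8 passed, 5 higher and 3 lower, where 61.1% of all did (29.8% higher and 31.3% lower). In wild type 6 passed, 3 higher and 3 lower, where 46% did (20.3% and 25.6%). Of all probe sets that passed for diet, 46.6% were higher on casein, and 60.5% once arrays were centred on their medians, which were lower on casein. In wild type these shares were 44.2% and 63.1%.

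Canx 94886_at differed by -1.14 ± 0.07 in HCM (adjusted p = 9.96e-14), a 2.2-fold lower level on casein, and by -0.48 ± 0.06 in wild type (adjusted p = 7.63e-07). Casein HCM stood lowest, casein wild type next, and soy HCM and soy wild type together highest at 8.48 ± 0.12 (n = 6) and 8.51 ± 0.12 (n = 8). Atf4 differed by 0.52 ± 0.06 in HCM (adjusted p = 6.96e-09) and 0.36 ± 0.05 in wild type (adjusted p = 2.32e-06), with means of 9.63 ± 0.10 in casein HCM, 9.36 ± 0.08 in casein wild type, 9.11 ± 0.11 in soy HCM and 8.99 ± 0.08 in soy wild type. Both genes also passed with array set as a random block, Canx at adjusted p = 2.87e-09 and 0.000448 and Atf4 at 2.69e-05 and 0.00105. Since these sets follow diet and genotype, that fit cannot separate a difference between sets from diet.

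Ddit3 moved in opposite directions by genotype. It differed by 1.05 ± 0.08 in HCM (adjusted p = 2.13e-11), with no overlap in either sex, and by -0.25 ± 0.08 in wild type (adjusted p = 0.00844), with overlap in both sexes. The wild-type call was lost with array set as a random block (adjusted p = 0.111), with arrays centred on their medians (-0.19, adjusted p = 0.053) and without the first casein wild-type set (-0.20, adjusted p = 0.0988). This comparison in HCM uses the same casein HCM arrays as the HCM comparison on casein, so the values of the 2 are not separate evidence.

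The Dnajb9 probe sets moved in opposite directions in HCM, by 0.80 ± 0.10 for 96679_at (adjusted p = 6.01e-08) and -0.81 ± 0.15 for 96680_at (adjusted p = 2.7e-05). In wild type they differed by 0.19 ± 0.09 (adjusted p = 0.0935) and -0.66 ± 0.14 (adjusted p = 0.000241). A direction for Dnajb9 with diet therefore depends on the probe set. The first became a call in wild type after centring (0.25, adjusted p = 0.0252) or added quantile normalization (0.26, adjusted p = 0.0334), and without male casein wild-type array 2 (0.24, adjusted p = 0.0307) or male soy wild-type array 1 (0.22, adjusted p = 0.0475).

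Hsp90b1 was higher on casein in HCM (0.32 ± 0.07, adjusted p = 0.000337) and in wild type (0.21 ± 0.07, adjusted p = 0.0105). Added quantile normalization ended both calls (0.16, adjusted p = 0.0523, and 0.08, adjusted p = 0.335), and the random block that in wild type (adjusted p = 0.126). Hspa5 differed by -0.08 ± 0.13 in HCM (adjusted p = 0.601) and by 0.36 ± 0.12 in wild type (adjusted p = 0.0197). The wild-type call was lost with quantile normalization (0.16, adjusted p = 0.244), with the random block (adjusted p = 0.166), without the second casein wild-type set (0.25, adjusted p = 0.218), and without female soy wild-type array 3 (0.30, adjusted p = 0.0576) or female casein wild-type array 4 (0.31, adjusted p = 0.0516). Quantile normalization also gave a call for Hspa5 in HCM (-0.36, adjusted p = 0.011), so no direction of Hspa5 with diet held under every scaling.

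Canx 160180_at differed by -0.41 ± 0.08 in HCM (adjusted p = 7.3e-05) and 0.08 ± 0.07 in wild type (adjusted p = 0.408). Calr differed by 0.15 ± 0.06 in HCM (adjusted p = 0.0298) and 0.12 ± 0.05 in wild type (adjusted p = 0.0614), and its call in HCM was lost in 7 of 30 fits without 1 array (0.12 to 0.18 over all 30, adjusted p up to 0.097) and with the random block (adjusted p = 0.2). In wild type it became a call after centring (0.19, adjusted p = 0.00574), added quantile normalization (0.17, adjusted p = 0.0129) or array weights (0.16, adjusted p = 0.00937), and without male casein HCM array 2 (0.12, adjusted p = 0.0467) or male soy wild-type array 2 (0.16, adjusted p = 0.0144). Xbp1 differed by -0.16 ± 0.14 in HCM (adjusted p = 0.313) and -0.08 ± 0.13 in wild type (adjusted p = 0.642). In the mean diet comparison, 7 of 8 cardiomyocyte and 5 of 6 smooth muscle and pericyte markers were higher on casein. Of 8 endothelial markers 5 were higher and 2 lower. None of 6 B and plasma cell markers or 3 liver markers was higher, and 3 of each were lower. Of all probe sets, 29% were higher and 33.3% lower. The part of these markers in the diet results was not tested.

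**Figure D4:**
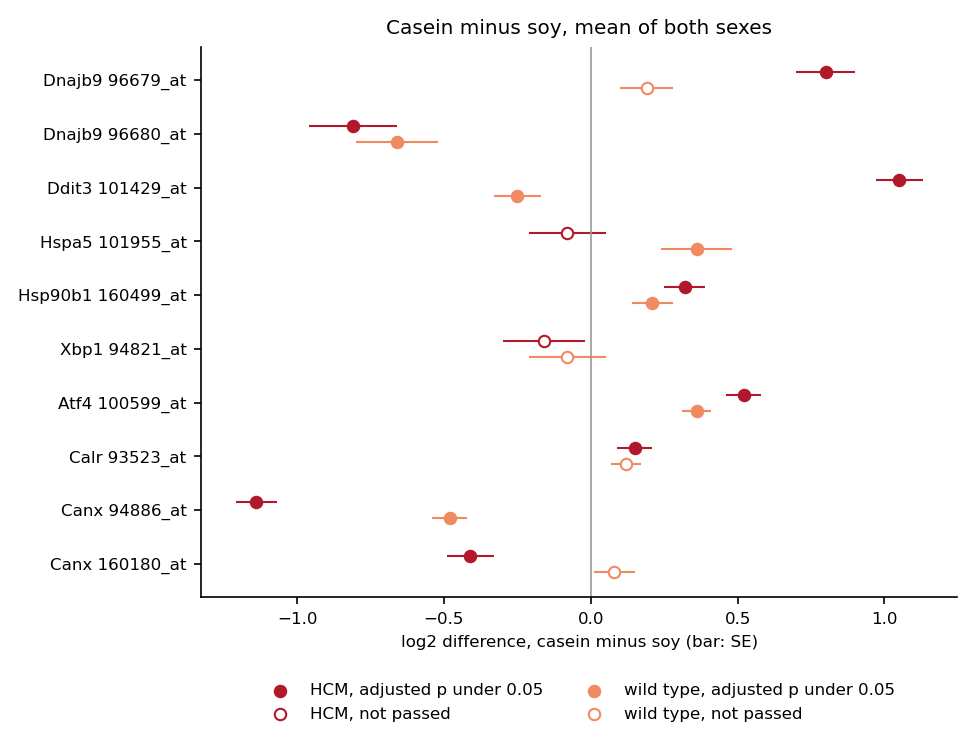
Casein minus soy on the log2 scale for the 10 probe sets in HCM (red) and wild type (orange), each the mean of both sexes with its SE; filled points passed at an adjusted p under 0.05. Ddit3 lies on opposite sides of 0 at 1.05 in HCM and -0.25 in wild type, and the Dnajb9 probe sets lie on opposite sides in HCM at 0.80 and -0.81.

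None of the 10 probe sets passed for sex in the mean over diets and genotypes by limma, where 0.233% of all did; at an unadjusted p under 0.05 there were 2, Calr (-0.12 ± 0.04, lower in females) and Hsp90b1 (0.11 ± 0.05). No probe set of the array passed for a difference in HCM effect or in diet effect between the sexes (0% in both), and at an unadjusted p under 0.05 there were 1 and 4 of the 10. Sex by sex, the HCM difference passed for 6 of the 10 in females (33% of all probe sets) and 5 in males (31.6%) on casein, and for 1 in females (4.07%) and 3 in males (12.5%) on soy. The diet difference passed for 7 in females (43.8%) and 7 in males (48.8%) with HCM, and for 3 in females (24.8%) and 6 in males (37.8%) of wild type. The 1 probe set at an unadjusted p under 0.05 for HCM and sex was Dnajb9 96679_at, whose HCM effect differed between females and males by -0.32 ± 0.13 (adjusted p = 0.933). That effect stood at 1.06 in females and 1.42 in males on casein, and at 0.48 in females and 0.77 in males on soy. Each of the 4 passed on its own, and the soy value in females did not with array set as a random block (adjusted p = 0.299). The difference in Hspa5 between casein and soy was -0.03 ± 0.18 in wild-type females and 0.75 ± 0.18 in wild-type males, and the gap between the sexes, averaged over genotypes, was -0.47 ± 0.18 (adjusted p = 0.279).

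Other genes of the pathway were followed on 5 lists with 133 of 172 genes measured. On casein, 53 were higher and 21 lower in HCM, where 25% of all probe sets were higher and 24% lower (medians 0.08 and -0.00). On soy, 20 were higher and 17 lower, where 12.3% of all passed in each direction (medians 0.04 and -0.01). The lists were not tested as sets.

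Of 38 measured genes for folding, disulfide bonds and glycoprotein control, 19 were higher and 4 lower in HCM on casein (median 0.18). The shares over all probe sets were 25% higher and 24% lower. The largest changes were in Erp44, a thioredoxin-family protein that retains ER oxidases (0.89 ± 0.06, adjusted p = 3.74e-12; 6.78 ± 0.06 in HCM and 5.89 ± 0.11 in wild type), Fkbp7, a prolyl isomerase of the ER (0.69 ± 0.06, adjusted p = 1.58e-09), and Rcn1, a calcium-binding protein of the ER lumen (0.66 ± 0.11, adjusted p = 9.81e-06). On soy 5 were higher and 5 lower, where 12.3% of all probe sets passed in each direction. There Rcn2 (0.43 ± 0.09) and the collagen chaperone Serpinh1 (0.31 ± 0.11) were higher, and the disulfide isomerase P4hb was lower (-0.32 ± 0.07). Erp44 averaged 5.90 ± 0.14 in soy HCM and 5.87 ± 0.14 in soy wild type, and the difference between its HCM effects was 0.87 ± 0.09 (adjusted p = 9.43e-09), as for Ddit3 a rise on casein with no such rise on soy.

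Among 17 measured sensors, transcription factors and feedback genes, 7 were higher and 2 lower in HCM on casein. Over all probe sets, 25% were higher and 24% lower on casein, and 12.3% passed in each direction on soy. Atf5, a relative of ATF4, differed by 0.61 ± 0.08 (adjusted p = 2.23e-07), the initiation factor Eif2a by 0.50 ± 0.06 (adjusted p = 3.41e-08) and the transcription factor Cebpb by 0.64 ± 0.17 (adjusted p = 0.00311). On soy 2 were higher and 1 lower: the sensor Atf6 (0.60 ± 0.09, adjusted p = 3.15e-05), Cebpg (0.30 ± 0.09) and, lower, Ppp1r15a (-0.23 ± 0.06), which helps to restore translation. Atf6 averaged 7.10 ± 0.16 in soy HCM and 6.49 ± 0.15 in soy wild type, against 7.05 ± 0.23 in casein HCM and 7.16 ± 0.24 in casein wild type, so soy wild type stood below the other 3. Ppp1r15a was higher in HCM on casein (0.39 ± 0.06), and the effects differed by 0.63 ± 0.09 (adjusted p = 2.22e-06).

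Of 25 measured targets of ATF4 and CHOP or genes of ER-linked death, 11 were higher and 4 lower in HCM on casein. On soy 3 were higher and 4 lower. Over all probe sets, 25% were higher and 24% lower on casein, and 12.3% passed in each direction on soy. Ddit4, an inhibitor of mTORC1 signalling, differed on casein by 1.33 ± 0.23 (adjusted p = 3.12e-05; 8.52 ± 0.74 in HCM and 7.19 ± 0.51 in wild type) and Gadd45b, a stress sensor of the GADD45 family, by 0.74 ± 0.07 (adjusted p = 2.36e-09). Both differed in HCM effect between diets, Ddit4 by 1.55 ± 0.34 (adjusted p = 0.000597) and Gadd45b by 0.85 ± 0.10 (adjusted p = 2.7e-07). On soy the asparaginyl-tRNA synthetase Nars (0.37 ± 0.13) and the lipoprotein receptor Vldlr (0.33 ± 0.10) were higher, and Ndrg1 was lower (-0.47 ± 0.08).

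Of 16 measured genes of ER-associated degradation, 5 were higher and 4 lower in HCM on casein, and 5 higher and 2 lower on soy. Over all probe sets, 25% were higher and 24% lower on casein, and 12.3% passed in each direction on soy. The ubiquitin ligase Rnf5 was higher on casein (0.28 ± 0.07), and Bag6 (-0.47 ± 0.06) and Hspbp1 (-0.34 ± 0.08), both partners of chaperones, were lower. On soy Sel1l, the adaptor of the Hrd1 ligase (0.47 ± 0.11), Ubxn4 (0.38 ± 0.08) and Edem3, a lectin-like factor for misfolded glycoproteins (0.37 ± 0.07), were higher. Of 38 measured genes for translocation, glycan transfer and export, 12 were higher and 7 lower on casein, and 5 higher and 5 lower on soy. The same shares over all probe sets apply to this list. Tmed9, a cargo receptor of the early secretory route, was higher in HCM on casein (0.65 ± 0.09, adjusted p = 1.32e-06) and lower on soy (-1.0 ± 0.10, adjusted p = 6.04e-08), a difference of 1.64 ± 0.13 (adjusted p = 3.04e-10). Ddost, a subunit of oligosaccharyltransferase, was higher on casein (0.59 ± 0.08), and the translocon-associated Ssr4 was lower (-0.73 ± 0.12). On soy Ssr3 was higher (0.34 ± 0.08) and the translocon subunit Sec61b lower (-0.35 ± 0.07).

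By diet, 58 of the 133 were higher and 35 lower on casein in the mean over sexes and genotypes, where 29% of all probe sets were higher and 33.3% lower. The cyclophilin Ppib (0.72 ± 0.06), the lectin Os9 (0.69 ± 0.05), the mannosidase Man1b1 (0.61 ± 0.06) and the cargo-retrieval receptor Kdelr2 (0.52 ± 0.04) were higher on casein. The ER oxidase Ero1a (-0.78 ± 0.05), the calnexin relative Clgn (-0.70 ± 0.06) and the translocon-associated Ssr1 (-0.62 ± 0.05) were lower. ATF4 and CHOP targets were split, with 9 higher and 10 lower. Among them the tRNA synthetase Gars was higher (0.51 ± 0.06) and the asparagine synthetase Asns (-0.47 ± 0.05) and the pro-apoptotic Bcl2l11 (-0.46 ± 0.05) were lower, although Atf4 itself was higher.

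**Figure D5:**
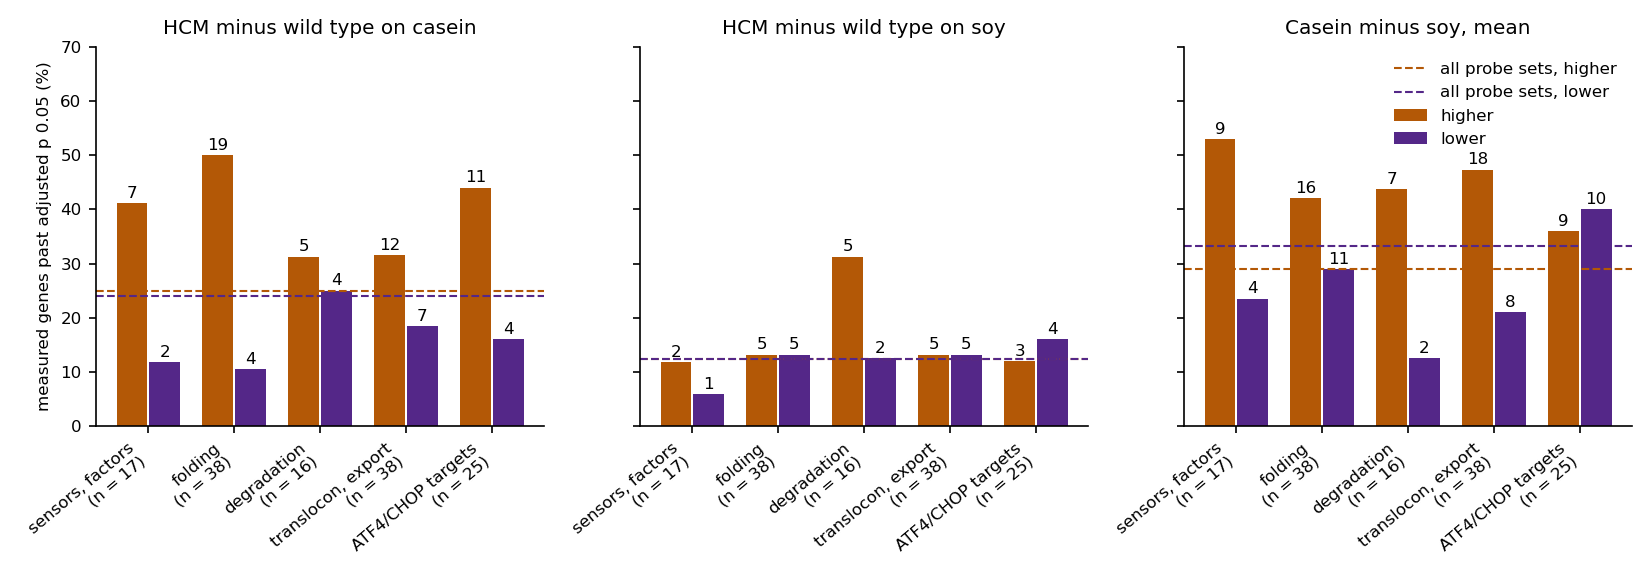
Share of the measured genes of each of 5 pathway lists that passed higher (orange) or lower (purple) in HCM against wild type on casein, in HCM against wild type on soy, and on casein against soy, with the number of genes above each bar. Dashed lines mark the share of all probe sets in each direction; 19 of 38 folding genes were higher in HCM on casein.

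Across the 8 group means, Dnajb9 96679_at correlated with Hsp90b1 at 0.93 and with Ddit3 at 0.82, and Canx with Atf4 at -0.96. The measured genes with the closest pattern were Septin7 (0.987), Cpe (0.986) and Pkp4 (0.984) for Dnajb9, Apod (0.986), Zfyve16 (0.985) and Bcl7c (0.985) for Ddit3, and Hmox1 (0.999), Ptafr (0.998) and Tmem191c (0.996) for Canx. For Hsp90b1 they were Cpq (0.991), Pnrc2 (0.989) and Tomm7 (0.987), and for Atf4 Akr1a1 (0.992), Pcp4l1 (0.992) and Rps18 (0.991). Hspa5 had Birc2 (0.958), Mettl5 (0.937) and Avpr1a (0.913), Xbp1 had Actg2 (0.921), Adcy4 (0.907) and Wfdc21 (0.878), and Calr had Dppa5a (0.977), Gad2 (0.968) and Thop1 (0.950). These are Pearson correlations over 8 points that share arrays, given as a description.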

How the data were processed

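Left ventricle RNA was measured on 30 arrays. Per the submitters' processing notes, the authors made the deposited log2 expression values with RMA, and the notes also name Affymetrix Expression Console. RMA corrects background, equalises distributions between arrays and summarises probes, which compresses small differences of dim probe sets. Their versions were not stated there. The 66 control probe sets were left out of tests, and the other 12422 were fitted in limma 3.58.1 (R 4.3.3) with 1 coefficient per group, 22 residual and 5.86 prior degrees of freedom. Benjamini-Hochberg adjustment ran over all probe sets of each comparison, with a threshold of 0.05. Symbols came from the platform annotation: 10833 probe sets had 1, 396 several and 1193 none.

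Depth has no meaning for arrays, and the number of arrays limits the precision. Array sets followed the labels, 1 for each combination of diet and genotype, except that the casein wild-type arrays were divided at the midpoint of the hybridization controls BioD minus BioC, since a planned division at 0 separated none. Replicate numbers were not taken to pair samples. Deviations from group means correlated at -0.0049 on average between same-numbered arrays (99 pairs, -0.55 to 0.6) and at 0.0049 between others. In casein wild type the numbers followed the sets, with arrays 1 and 2 of each sex in the first and 3 and 4 in the second. The fit was tested on simulated data.

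Named were all probe sets of the 8 genes, up to 3 genes per pathway list and comparison with the largest change among those that passed, and the 3 closest genes by group means. A gene on a list stood by its probe set of highest mean. The genes and the pathway and marker lists were chosen with earlier results of these data known. Promoters came from RefSeq (GRCm38.p6). Alternatives were 1 probe set per gene, no dim probe sets, added quantile normalization, median centring, array weights, a trended prior, fewer groups in the fit, the replicate number as a block, array set as a random block (limma with statmod 1.5.0), leaving out either casein wild-type set, and leaving out each array.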

Additional observations from a re-analysis of the deposited data

Results flagged for a closer look

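In 4 of 60 groups of 4 arrays, 1 array stood far from the other 3 by Dixon's test, which chance gives in about 1 in 20 groups. Hspa5 read 10.13 on female casein HCM array 3, against 9.80 to 9.84 on the other 3. Calr read 4.47 on female casein wild-type array 4, against 4.25 to 4.27. Canx 160180_at read 3.94 on male soy wild-type array 2, against 4.60 to 4.65, and 4.17 on female casein HCM array 4, against 4.38 to 4.41.

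The HCM effect on casein differed from that on soy, by the limma test of the difference, in 5 of the 10 probe sets. Of all probe sets, 45.2% passed that test. It was larger on casein by 0.62 for Dnajb9 96679_at and by 1.31 for Ddit3. The difference was -0.44 for Hspa5, -0.66 for Canx 94886_at and -0.49 for Canx 160180_at. For Hspa5 the call was lost in 22 of 30 fits that left out 1 array and with array set as a random block. The poly-A controls set casein HCM apart from all other groups, and the hybridization controls also differed between the groups compared. What these controls reflect cannot be told apart from genotype and diet.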

How the results depend on the processing

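No direction of a call among the 10 probe sets reversed under any alternative. The number of the 10 past the threshold for HCM on soy was 4. It was 2 with 1 probe set per gene, 2 with only the compared groups in the fit, 1 with array set as a random block and 2 without all casein HCM arrays, the last chosen after seeing the data. Leaving out each array in turn gave 1 to 5, the lowest without female soy HCM array 3 and the highest without male soy wild-type array 1 or 3 or male soy HCM array 1. For diet in wild type the number was 6, and 3 with the random block. Sex by sex, the random block gave 1 against 3 for HCM on soy in males and 0 against 1 in females by limma. The counts of the 10 in all other comparisons stayed within 1.5 times of the reported ones under the settings run for them.

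With the replicate number as a block, 1 call among the 10 probe sets changed: Calr for diet in HCM became 0.14 (adjusted p = 0.0511).

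Over all probe sets, these counts moved by over 1.5 times. Array set as a random block gave 1194 for the mean HCM effect against 4076, 3395 for HCM on casein against 6088, 343 for HCM on soy against 3064, 3122 for diet in wild type against 5708 and 2616 for HCM by diet against 5616. Sex by sex, it gave 64 against 505 for HCM on soy in females, 167 against 1558 in males, 2491 against 4104 for HCM on casein in females, 2366 against 3920 in males, and 1602 against 3085 for diet in wild-type females. Array weights gave 5210 for HCM on soy, 93 for sex against 29 and 137 for diet by sex against 0. Without dim probe sets, counts were 5054 for the mean diet effect against 7733, 4936 for diet in HCM against 7590 and 3717 for HCM by diet, which was 3718 with 1 probe set per gene. In both, fewer probe sets were tested. Without a casein wild-type set, sex gave 19, diet by sex 10 and 1, and HCM by sex 2 against 0; the random block gave diet by sex 1. Leaving out 1 array gave up to 16 for diet by sex and up to 3 for HCM by sex. Pools of 2 animals, 1 array platform and control RNAs that differ between the groups limit all comparisons.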

Other observations

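Of the 37 genes whose RefSeq promoter window held the ER stress element, 12 were measured, 4 of them the chaperone genes described above. This list was drawn up after the promoters had been searched. In HCM on casein 4 of the 12 were higher and 2 lower, where 25% of all probe sets were higher and 24% lower, and on soy 1 was higher and 1 lower, where 12.3% of all passed in each direction. Among those outside the 8 genes, Dnajc3, which encodes an ER co-chaperone that also restrains PERK (0.45 ± 0.12, limma adjusted p = 0.00251), Creld2 and Adcy3 were higher in HCM on casein, and Pan2 was lower. Pdia6, Ero1b, Zfp57 and Ptgdr2 did not pass on casein, and Ptgdr2 was lower in HCM on soy (-0.28 ± 0.08, limma adjusted p = 0.00995). In the mean diet comparison 5 of the 12 were higher and 1 lower on casein, where 29% of all were higher and 33.3% lower. Nothing about genes with this element is read from these counts.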
